A study of Homo sapiens with 4 samples.

Results

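Copying the genome requires that helicases be loaded at origins, that forks be assembled and that deoxynucleotides be supplied, and 55 genes of this machinery were followed in Jurkat cells treated with JQ1. They are grouped by what their products do, as origin licensing factors (15 genes), fork factors (10), replicative polymerases and primase (9), clamp, clamp loader and single-strand binding factors (9), enzymes that process Okazaki fragments (4), enzymes of deoxynucleotide supply (5) and chromatin assembly factors (3). All 55 were found by gene symbol among the 50868 genes of the deposited tables.

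In G1 the origin recognition complex, CDC6 and CDT1 load the MCM2 to MCM7 ring onto origins, and in S phase CDC45 and the GINS complex join the ring to form the active helicase. Polymerase alpha with primase starts each strand, polymerases epsilon and delta extend the leading and lagging strands with the PCNA clamp, and FEN1 and LIG1 finish the lagging strand. Ribonucleotide reductase, formed by RRM1 with RRM2, makes deoxynucleotides from ribonucleotides, and many genes of this group are known targets of E2F transcription factors in dividing cells.

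RNA-seq was performed on Jurkat, a wild-type leukaemic T lymphoblast line that divides without stimulation. The cells were kept for 24 h in DMSO, in 0.5 μM JQ1, in DMSO with 150 ng/ml PHA, or in 0.5 μM JQ1 with 150 ng/ml PHA. JQ1 displaces BET proteins from acetylated chromatin, DMSO is its solvent and PHA (phytohemagglutinin) is a plant lectin that stimulates T cells. Each condition had 1 library (4 in all), so no difference between conditions could be tested and every interval given here covers counting error only.

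Total counts per library lay between 18620954 and 19685401, mitochondrial genes took 6.27% to 7.07% of them, and 3 counts amounted to 0.152 to 0.161 CPM, the unit of counts divided by library size. All 10 T lineage markers examined passed the filter used for all genes, a mean of at least 1 FPKM (fragments scaled to gene length and library size). They ran from CD7, between 1.30 and 2.24 FPKM, to CD3D, between 73.2 and 133 FPKM. None of 8 markers of other cell types passed the filter, and the highest of those, COL1A1, lay between 0.377 and 0.675 FPKM. The summed share of the T lineage markers was 0.164% and 0.185% of counts in the libraries without JQ1 (without and with PHA), and 0.0876% and 0.0904% in those with it. RNA was taken from whole cultures, so a smaller share of cells in S phase and less of an mRNA in each cell cannot be told apart.

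All 55 genes were among the 11503 that passed the filter. Promoters of RefSeq (GRCh38.p14, 250 bases before to 50 after a start) were at hand for 48 of the 55 genes (not for GINS4, MCM4, MCM5, DNA2, POLD3, RPA2 and RPA3), and some genes had several starts, which made 60 promoters. An E2F-type motif, here TTTCGCGC, TTTGGCGC, TTTCCCGC or TTTGGCGG on either strand, was present in 25 of the 60 promoters (41.7%), against 5.49% of 10847 promoters of genes that passed the filter and 3.35% of all 35116. Some of these motifs overlap each other, as TTTGGCGC does with the reverse of TTTCGCGC. CCAAT was in 36 of the 60 promoters, against 35.9% and 34.6% of the other sets, and CACGTG in 13.3% against 9.88% and 7.26%. A match of letters is a description and does not show that a factor binds there. Only exact copies of the listed motifs were searched, so a missing match does not show that no factor binds.

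Promoters of 4 helicase subunits and of POLE and POLE2 follow, from 160 bases before the start to 50 after it. These genes carry E2F-type matches. POLE was higher with JQ1 in both comparisons and the others were lower, and the part of the matches in these ratios was not tested. Capitals mark the E2F-type matches within the stretch shown, which overlap in MCM2 and MCM6. All sequences read 5′ to 3′ on the strand of the gene.
MCM2 (chr3:127598251-127598460, plus strand): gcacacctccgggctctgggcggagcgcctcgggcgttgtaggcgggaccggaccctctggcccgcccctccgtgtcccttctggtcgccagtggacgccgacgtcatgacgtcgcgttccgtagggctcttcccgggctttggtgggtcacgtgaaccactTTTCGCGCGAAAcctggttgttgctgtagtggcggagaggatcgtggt
MCM3 (chr6:52284693-52284902, minus strand): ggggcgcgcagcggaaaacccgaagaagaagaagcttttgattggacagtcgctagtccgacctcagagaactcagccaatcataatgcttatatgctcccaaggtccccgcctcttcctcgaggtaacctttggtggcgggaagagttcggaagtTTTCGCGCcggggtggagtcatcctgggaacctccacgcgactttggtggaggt
MCM6 (chr2:135876394-135876603, minus strand): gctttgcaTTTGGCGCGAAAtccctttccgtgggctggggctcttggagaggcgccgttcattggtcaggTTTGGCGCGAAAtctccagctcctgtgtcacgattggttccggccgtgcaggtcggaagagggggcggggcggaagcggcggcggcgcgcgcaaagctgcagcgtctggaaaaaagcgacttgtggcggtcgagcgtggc
MCM7 (chr7:100101348-100101557, minus strand): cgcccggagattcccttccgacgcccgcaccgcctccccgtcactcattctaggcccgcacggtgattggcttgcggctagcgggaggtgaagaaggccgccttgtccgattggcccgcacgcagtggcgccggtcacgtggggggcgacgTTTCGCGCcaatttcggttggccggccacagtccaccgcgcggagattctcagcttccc
POLE2 (chr14:49688165-49688374, minus strand): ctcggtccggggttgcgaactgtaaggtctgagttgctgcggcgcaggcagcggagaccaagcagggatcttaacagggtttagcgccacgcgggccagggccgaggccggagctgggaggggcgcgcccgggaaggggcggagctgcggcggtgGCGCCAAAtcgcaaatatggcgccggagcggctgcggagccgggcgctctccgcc
POLE (chr12:132687293-132687502, minus strand): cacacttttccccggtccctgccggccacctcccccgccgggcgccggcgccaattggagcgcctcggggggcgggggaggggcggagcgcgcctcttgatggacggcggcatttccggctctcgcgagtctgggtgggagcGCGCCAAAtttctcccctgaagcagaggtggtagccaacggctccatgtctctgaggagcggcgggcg

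The RRM2 promoter is shown because RRM2 was the gene with at least a 2-fold difference in both JQ1 comparisons. Its capitals mark 3 copies of CCAAT, and neither RefSeq start of RRM2 had an E2F-type match in its 300 bases.
RRM2 (chr2:10122579-10122788, plus strand): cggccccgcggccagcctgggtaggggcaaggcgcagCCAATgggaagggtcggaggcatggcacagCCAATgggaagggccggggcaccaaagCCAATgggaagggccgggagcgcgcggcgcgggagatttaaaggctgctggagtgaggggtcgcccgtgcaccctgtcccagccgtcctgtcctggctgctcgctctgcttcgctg

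E2F-type matches were in 8 of 13 licensing genes with a promoter, 7 of 9 fork genes, 4 of 8 polymerase genes, 3 of 7 clamp and single-strand binding genes, and in 1 gene of each other role. Of the 35 matches, 23 began between 60 bases upstream and 50 bases downstream of the start, 18 of them upstream. Over the 25 genes with a match the JQ1 to DMSO ratio had a log2 median of -0.28, and over the 23 without one it was -0.07. With PHA these medians were -0.12 and 0.06. The ranges overlapped widely, from -0.84 to 0.58 with a match and from -0.94 to 1.0 without.

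JQ1 against DMSO asked how the replication genes of unstimulated cells differed after BET inhibition. Most of the 55 genes were slightly lower with JQ1, with POLD2, POLD3 and POLE2 the lowest, 5 of the 6 genes of the helicase ring were lower, and GINS4 and RRM2 were the highest. The log2 ratio of FPKM (after adding 0.1 to each value, which understates differences of low genes) was below 0 for 38 of 55 genes, against 50.8% of all 11503 genes that passed the filter, and its median was -0.17 against -0.01. At least 2-fold higher were 2 genes, RRM2 and GINS4, where 5.22% of all genes were that much higher. No replication gene was at least 2-fold lower, against 8.65% of all genes. At 1.5-fold, 3 genes were higher (background 14.8%) and 7 were lower (background 19.3%). The 7 lower ones were POLD2, POLD3, POLE2, TIPIN, MCM7, CDT1 and GINS2. The 95% counting interval of the ratio of shares of counts lay below 0 for 31 genes (background 38.7%) and above 0 for 14 (background 36.9%), and included 0 for 10. An interval excludes 0 more often where counts are high, and its median width to either side was 0.10. Intervals printed beside a log2 ratio of FPKM are those of the ratio of shares of counts.

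JQ1 + PHA against DMSO + PHA asked the same of stimulated cells, and the genes lay closer to the level of their control. The median log2 ratio was -0.01 against -0.02 for all genes, and 30 of 55 genes were below 0 against 51.5%. That split depended on scaling, with 24 genes below 0 and 31 above under TMM or DESeq2 factors. RRM2 was the 1 gene at least 2-fold higher (background 3.69%), and no gene was at least 2-fold lower (background 8.0%). At 1.5-fold, RRM2 and TIMELESS were higher (background 11.7%) and POLE2 was lower (background 17.8%). Intervals lay below 0 for 23 genes (background 38.2%), above 0 for 17 (background 34.6%) and included 0 for 15.

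**Figure D1:**
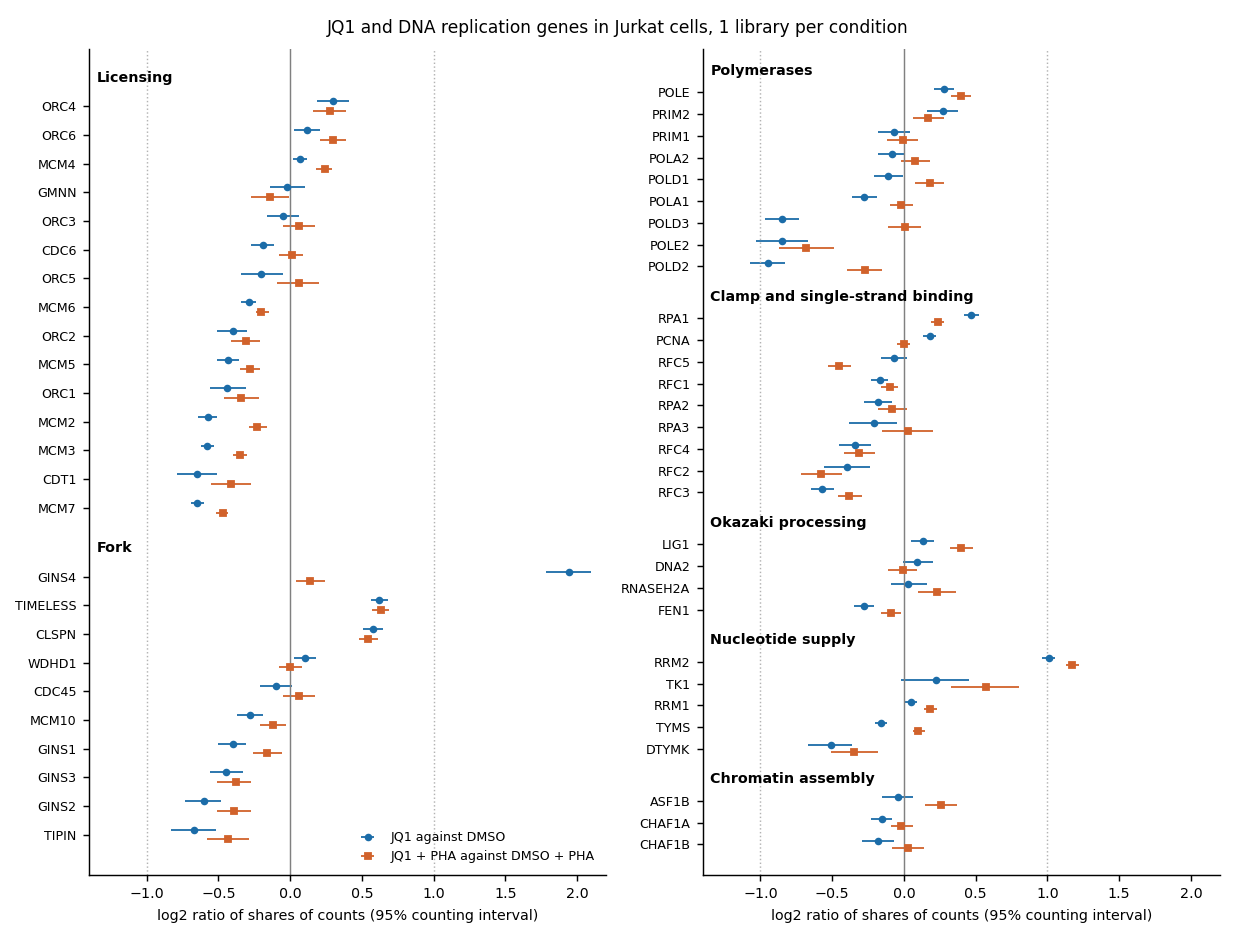
The x axis gives the ratio of shares of counts on a log2 scale for each of the 55 genes (y axis, grouped by role), with circles for JQ1 against DMSO, squares for JQ1 + PHA against DMSO + PHA and bars for 95% exact counting intervals from 1 library per condition. RRM2 lies at 1.01 and 1.17, GINS4 at 1.94 and 0.14, and 5 of the 6 MCM2 to MCM7 genes lie below 0 in both comparisons, with MCM4 above.

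Among the licensing factors, the helicase ring was the largest part, with 0.212% of all counts in DMSO, 0.161% in JQ1, and 0.202% and 0.173% in the respective libraries with PHA. The log2 ratio of this summed share was -0.40 (95% counting interval -0.43 to -0.38) without PHA and -0.23 (-0.25 to -0.20) with it. MCM7 had 50.6, 32.3, 48.5 and 35 FPKM in DMSO, JQ1, DMSO + PHA and JQ1 + PHA, the order used for all values below. Both JQ1 libraries were thus lower than both DMSO libraries, by 1.57-fold without PHA and by 1.39-fold with PHA as shares of counts. MCM3 had 85.3, 57.2, 80.9 and 63.4 FPKM, and its log2 ratios were -0.58 (-0.62 to -0.53) and -0.35 (-0.40 to -0.30). MCM2 had 36.6, 24.6, 33.2 and 28.4 FPKM, with log2 ratios of -0.57 without PHA and -0.22 with PHA. For MCM5 the values were 19.9, 14.7, 20.1 and 16.6 FPKM. In MCM6, a subunit with 4 E2F-type matches in overlapping pairs, they were 91.1, 74.5, 91.1 and 79.5 FPKM, the smallest difference of the 5 lower subunits.

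MCM4 encodes another subunit of the ring and did not follow the other five. It had 28.0, 29.4, 24.8 and 29.2 FPKM, so that its JQ1 libraries were the higher ones, with log2 ratios of 0.07 (0.02 to 0.12) and 0.23 (0.18 to 0.29). Its start lies 7 bases from that of PRKDC, which is transcribed the other way and had ratios of -0.11 and -0.06. MCM2, MCM4 and MCM5 are named beyond the rule for naming genes, as parts of 1 ring. Per unit of length, MCM5 was the lowest subunit in all 4 libraries, and the highest was MCM6 by the deposited FPKM or MCM3 when counts were divided by the GENCODE exon length. The gene length behind the deposited FPKM was 0.521 to 2.54 times that exon length over the 55 genes. For MCM7 (9817 against 9213 bases) and RRM2 (9644 against 9092) it exceeded the whole locus.

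The origin recognition complex was mixed. ORC1 (log2 ratios -0.43 and -0.34) and ORC2 (-0.40 and -0.31) were lower in both JQ1 libraries. ORC6 had 12.0, 13.1, 11 and 13.6 FPKM and was higher in both, with ratios of 0.12 (0.03 to 0.21) and 0.30 (0.21 to 0.39). ORC4 had 3.94, 4.85, 3.76 and 4.55 FPKM, and was also higher in both. The ORC4 locus overlaps MBD5 on the opposite strand, which had 430, 658, 528 and 758 counts, and the part of these reads in the ORC4 value was not tested. ORC3 had log2 ratios of -0.05 and 0.06, and ORC5 had -0.19 and 0.06.

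CDT1, which brings the ring to origins, had 14.6, 9.35, 12.9 and 9.74 FPKM, with log2 ratios of -0.64 (-0.79 to -0.51) and -0.41 (-0.55 to -0.27). Its inhibitor GMNN (geminin) had 14.4, 14.2, 13.6 and 12.4 FPKM, a narrower range than that of CDT1. CDC6, the loading ATPase, had 22, 19.2, 20.6 and 20.7 FPKM. Over the 15 licensing genes the medians were -0.29 and, under PHA, -0.20, and 12 and 9 genes were below 0.

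At the fork, the paired factors TIMELESS and TIPIN, which form a complex that stabilises stalled forks, lay on opposite sides. TIMELESS had 22.3, 34.3, 21.3 and 32.9 FPKM, and both JQ1 libraries were higher, 1.54-fold (1.48 to 1.60) without PHA and 1.55-fold (1.48 to 1.61) with PHA. TIPIN had 11.2, 7.0, 11.3 and 8.39 FPKM, and both JQ1 libraries were lower, with log2 ratios of -0.66 (-0.83 to -0.52) and -0.43 (-0.58 to -0.29). CLSPN (claspin), the checkpoint mediator that acts with them, had 23.7, 35.4, 27.0 and 39.4 FPKM and log2 ratios of 0.58 and 0.54. The start of TIPIN lies 91 bases from that of MAP2K1 on the other strand, and MAP2K1 had ratios of 0.74 and 0.81.

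The GINS complex has 4 subunits, and 3 of them were lower with JQ1. GINS1 had 22.9, 17.3, 20.3 and 18.2 FPKM, GINS2 had 20.3, 13.4, 18.8 and 14.3, and GINS3 had 6.64, 4.87, 6.34 and 4.86. GINS2 overlaps the opposite-strand gene GSE1, which had 2248 to 2941 counts against 897 to 1301 for GINS2. GINS4 differed from the other subunits, with 1.87, 7.17, 6.85 and 7.56 FPKM from 398, 1594, 1524 and 1589 counts. The DMSO library alone was low, and the other 3 libraries lay between 6.85 and 7.56 FPKM. Its share of counts was therefore 3.83-fold higher (3.43 to 4.28) with JQ1 against DMSO, and 1.10-fold higher (1.03 to 1.18) with JQ1 + PHA against DMSO + PHA. Both 2-fold differences of GINS4 rest on that 1 DMSO library.

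The remaining fork genes were closer to level. CDC45 had 14.9, 13.8, 14 and 14.6 FPKM and WDHD1, a polymerase alpha adaptor, had 16.3, 17.5, 16.2 and 16.2. MCM10, which helps to activate the helicase, had 12.1, 9.97, 12.4 and 11.4 FPKM, and its log2 ratios were -0.28 and -0.12.

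**Figure D2:**
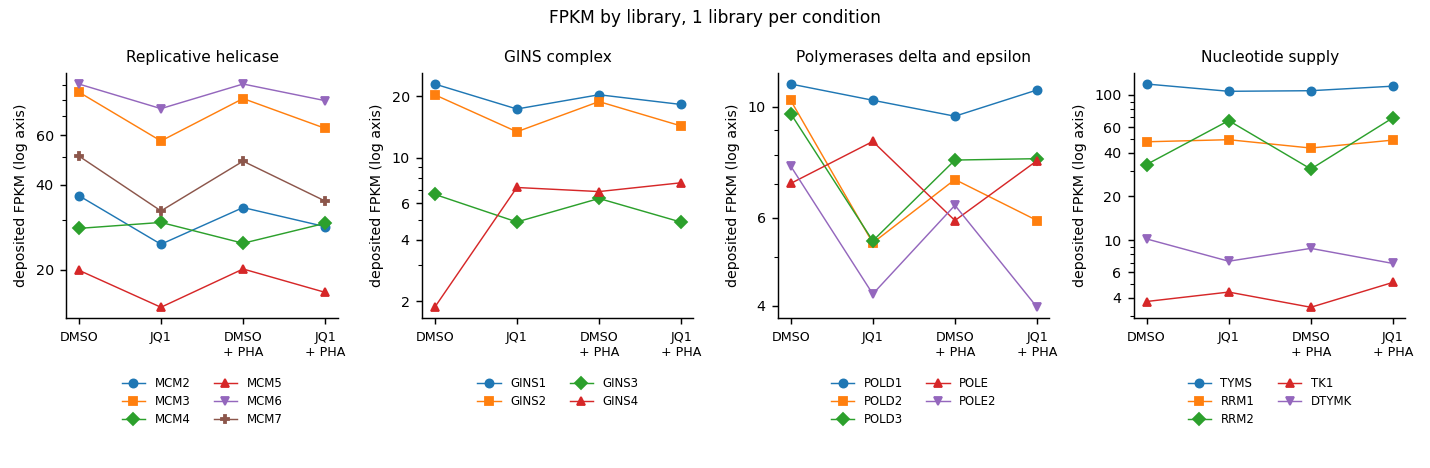
Deposited FPKM (y axis, log scale) of the helicase ring, the GINS complex, subunits of polymerases delta and epsilon and enzymes of nucleotide supply in each of the 4 libraries (x axis), 1 point per library, with lines joining the points of a gene. GINS4 is low at 1.87 FPKM in the DMSO library alone, and RRM2 alternates between 30.9 to 33.2 FPKM with DMSO and 66.6 to 69.7 FPKM with JQ1.

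Of the polymerases, POLD2 and POLD3 (accessory subunits of polymerase delta) and POLE2 (the second subunit of polymerase epsilon) had the lowest ratios of all 55 genes in JQ1 against DMSO. POLD2 had 10.3, 5.34, 7.15 and 5.92 FPKM, and its log2 ratios were -0.94 without PHA and -0.27 with PHA. As shares of counts these were 1.93-fold lower and 1.21-fold lower, and the DMSO + PHA library lay between the DMSO library and the JQ1 libraries. POLD3 had 9.69, 5.39, 7.82 and 7.87 FPKM, so the JQ1 library was low against DMSO (log2 ratio -0.84) and the JQ1 + PHA library was level with its control (0.01, interval -0.11 to 0.12). LIPT2 starts 127 bases from POLD3 on the other strand and had ratios of -0.54 and 0.00. POLE2 had 7.61, 4.22, 6.35 and 3.97 FPKM, and both JQ1 libraries lay below both DMSO libraries, 1.80-fold lower without PHA and 1.60-fold lower with PHA.

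The catalytic subunits did not share these values. POLE had 7.02, 8.52, 5.92 and 7.80 FPKM, higher with JQ1 by log2 ratios of 0.28 (0.21 to 0.35) and 0.39 (0.33 to 0.47). POLD1 had 11.1, 10.3, 9.57 and 10.8 FPKM, with ratios of -0.11 (-0.21 to -0.01) and 0.18 (0.08 to 0.28). POLA1 had 15.9, 13.1, 15.5 and 15.3 FPKM and was lower in the JQ1 library without PHA only. POLE and POLE2 lay on opposite sides, and both promoters hold 1 E2F-type match near the start. POLA2 (-0.08 and 0.08) and the primase subunit PRIM1 (-0.07 and -0.01) were near level, and PRIM2 had ratios of 0.27 and 0.17.

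PCNA, the sliding clamp, was the most abundant of the 55 genes per unit of length in every library, with 196, 222, 207 and 206 FPKM. Its log2 ratio with JQ1 was 0.18 (0.13 to 0.22), and -0.00 (-0.05 to 0.04) when PHA was present. The clamp loader genes were mostly lower. RFC3 had 45.0, 30.3, 38.9 and 30.0 FPKM, with ratios of -0.57 and -0.38, and RFC2 had 7.04, 5.33, 8.87 and 5.95, with ratios of -0.40 and -0.57. RFC4 had ratios of -0.33 and -0.31, and RFC1, the large subunit, had -0.17 and -0.10.

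RFC5 had 17.8, 17.0, 24.9 and 18.3 FPKM, and the DMSO + PHA library alone was high. WSB2, on the opposite strand at the same locus, had 672, 520, 1626 and 574 counts and was highest in the same library, and its part in the RFC5 value was not tested. RPA1, the largest subunit of the single-strand binding complex, had 33.7, 46.7, 39.0 and 46.0 FPKM, with log2 ratios of 0.47 (0.42 to 0.52) and 0.24 (0.19 to 0.28). RPA2 and RPA3 had ratios of -0.18 and -0.21 without PHA and of -0.08 and 0.03 with PHA. The RPA3 locus overlaps UMAD1, whose counts reached 93.7% of those of RPA3.

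Among the enzymes of Okazaki fragments, LIG1, the ligase that seals them, had 13.0, 14.2, 11.6 and 15.4 FPKM, with log2 ratios of 0.13 (0.05 to 0.21) and 0.40 (0.32 to 0.48). FEN1, the flap nuclease, had 50.6, 41.7, 45.9 and 43.2 FPKM, with ratios of -0.28 (-0.35 to -0.21) and -0.09 (-0.16 to -0.02). FEN1 overlaps FADS2 on the same strand, which had 6278 to 8486 counts. DNA2 had 10.1 to 10.8 FPKM in the 4 libraries, and RNASEH2A had 13.4 to 15.7. The chromatin assembly genes had small ratios, and each had 1 JQ1 comparison with an interval away from 0. ASF1B had 18.4, 17.9, 15.8 and 19.0 FPKM, with log2 ratios of -0.04 and 0.26 (0.15 to 0.37). CHAF1A had 25.5, 22.9, 24.7 and 24.4, with ratios of -0.15 (-0.23 to -0.08) and -0.02. CHAF1B had 14.3, 12.6, 13.3 and 13.6, with ratios of -0.18 (-0.29 to -0.07) and 0.03.

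Of the genes of nucleotide supply, RRM2 encodes a small subunit of ribonucleotide reductase. It had 33.2, 66.6, 30.9 and 69.7 FPKM from 6017, 12645, 5866 and 12511 counts. Both JQ1 libraries were higher than both DMSO libraries, 2.01-fold (1.95 to 2.07) without PHA and 2.25-fold (2.19 to 2.33) with PHA as shares of counts. Its log2 ratio of FPKM without PHA was 1.0, at the 2-fold line, and 0.99 with a pseudocount of 1. RRM2 (ENSG00000171848) lies at chr2:10122328-10131419 on the plus strand. How reads with several alignments were counted is not given in the sources used here, and RRM2 has processed pseudogenes. RRM1, the large subunit of the same enzyme, had 47.6, 49.2, 43.1 and 48.9 FPKM, with log2 ratios of 0.05 (0.00 to 0.09) and 0.18 (0.14 to 0.23). By deposited FPKM, RRM2 was below RRM1 in the DMSO libraries and above it in the JQ1 libraries, whereas by counts per GENCODE exon length RRM1 was the higher of the pair also in the JQ1 libraries. RRM2B, the alternative small subunit, had 4.03, 4.94, 5.29 and 5.23 FPKM.

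TYMS (thymidylate synthase), the most abundant of the supply genes, had 119, 106, 107 and 115 FPKM, with log2 ratios of -0.16 (-0.20 to -0.12) and 0.10 (0.06 to 0.15). DTYMK, the kinase that acts on its product, had 10.2, 7.16, 8.78 and 6.91 FPKM and was lower in both JQ1 libraries (-0.51 and -0.34). TK1, the thymidine salvage kinase, had 3.78, 4.39, 3.45 and 5.12 FPKM from only 261 to 366 counts. Its log2 ratios of shares of counts were 0.22 (-0.02 to 0.45) and 0.57 (0.33 to 0.80). The summed share of the 5 supply genes was 0.129%, 0.156%, 0.118% and 0.163% of counts, and RRM2 held 12645 of the 30769 counts in the JQ1 library. Without RRM2 the other supply genes took 0.0974%, 0.0921%, 0.0880% and 0.0962%. Over all 55 genes the summed share was 0.810%, 0.784%, 0.783% and 0.814%. Without RRM2 it was 0.778%, 0.719%, 0.753% and 0.747%.

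The ratios of the 2 JQ1 comparisons, which share no library, were set side by side. Across the 55 genes, which are not independent replicates, they had a Pearson r of 0.735 and a Spearman rho of 0.831, against 0.740 and 0.786 over all genes that passed the filter. Without GINS4 the values were 0.862 and 0.832. For each gene the ratio with PHA minus that without PHA was also taken. It was above 0 for 44 of 55 genes, against 49.9% of the 10903 genes with at least 20 counts in each library, and its median was 0.16 against -0.00. Its 95% interval, by a normal approximation of the counting error, lay above 0 for 32 genes (background 21.3%) and below 0 for 4 (background 22.1%). The largest positive values were those of POLD3 (0.86, 0.69 to 1.02) and POLD2 (0.68, 0.51 to 0.85), then MCM2 (0.35, 0.26 to 0.44) and TK1 (0.35, 0.03 to 0.68). The 4 genes with an interval below 0 were GINS4, RFC5, RPA1 and PCNA.

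With PHA alone, few of the 55 genes differed by much. In DMSO + PHA against DMSO, 1 gene (GINS4) was at least 2-fold higher (background 2.1%) and none was 2-fold lower (background 1.19%). At 1.5-fold, GINS4 was again the 1 higher gene (background 5.59%) and no gene was lower (background 3.83%). The median log2 ratio was -0.08 against -0.01 for all genes, with 41 of 55 genes below 0 (background 51.1%). Intervals lay below 0 for 26 genes (background 25.1%) and above 0 for 6 (background 24.7%). In JQ1 + PHA against JQ1, no gene was 2-fold higher (background 1.04%) or lower (background 1.03%), and none passed 1.5-fold in either direction (background 2.58% higher and 3.05% lower). The median was 0.07 against -0.00, and 39 of 55 genes were above 0 (background 49.1%). Intervals lay above 0 for 19 genes (background 15.6%) and below 0 for 5 (background 15.7%). The ratios ran from -0.20 for GMNN to 0.54 for POLD3. DMSO + PHA against DMSO shares the DMSO library with JQ1 against DMSO.

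**Figure D3:**
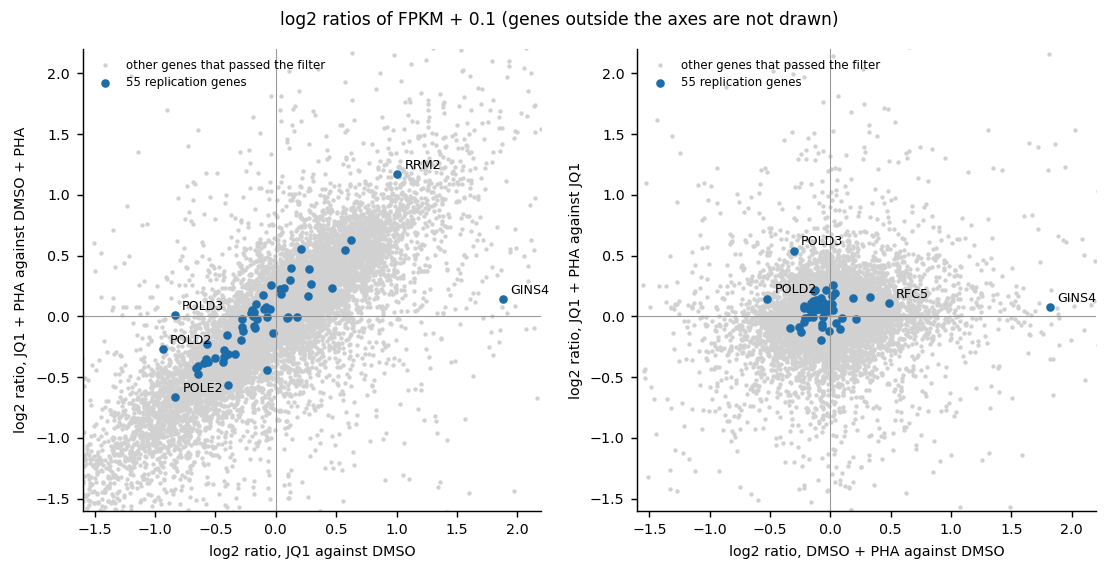
Each point is 1 gene, with the 55 replication genes in blue and the other genes that passed the filter in grey, and the axes are log2 ratios of FPKM + 0.1 from 1 library per condition. In the left panel (JQ1 without PHA on the x axis, with PHA on the y axis) RRM2 lies at 1.0 and 1.17 and GINS4 at 1.88 and 0.14, and in the right panel (PHA in DMSO on the x axis, in JQ1 on the y axis) most replication genes lie near 0, with GINS4 at 1.82 and 0.07.

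Other genes of the same processes were taken from lists by function. Of 41 other replication factors 40 passed the filter, and the medians were -0.02 without PHA and 0.12 with PHA. None of them was 2-fold higher (background 5.22% without PHA and 3.69% with PHA) or lower (background 8.65% and 8.0%) in either JQ1 comparison. The 41 other genes of nucleotide synthesis lay lower. They include genes of purine, pyrimidine and one-carbon pathways, and also of nucleotide salvage (as DCK), breakdown (as SAMHD1) and reduction (as TXN). Of the 38 that passed, 9 were at least 2-fold lower with JQ1 (background 8.65%) and 8 with JQ1 + PHA (background 8.0%). None was 2-fold higher (background 5.22% and 3.69%), and the medians were -0.71 and -0.67.

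Of these genes 7 were 2-fold lower in both comparisons, and the share of all genes that did the same was not counted. MTHFD1L, a mitochondrial enzyme of one-carbon metabolism, had 14.8, 2.40, 12.2 and 2.16 FPKM, and both JQ1 libraries were far below both DMSO libraries. NME1, a nucleoside diphosphate kinase, had 19.8, 3.63, 16.6 and 3.75 FPKM. For PRPS2, which makes the ribose phosphate precursor, the values were 31.2, 8.14, 24.8 and 8.43. The purine synthesis enzymes PFAS and ATIC had log2 ratios of -1.74 and -1.61 without PHA and of -1.53 and -1.36 with PHA. The summed share of the list was 0.631%, 0.377%, 0.565% and 0.386% of counts.

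The 13 genes of the E2F and RB families had medians of -0.40 and -0.09. TFDP1, the partner of E2F proteins on DNA, had 52.0, 16.9, 29.1 and 25.6 FPKM. It was the 1 gene of this list at least 2-fold lower in JQ1 against DMSO (background 8.65%). E2F3 had 3.38, 2.22, 4.10 and 9.41 FPKM, and the JQ1 + PHA library alone was high. RB1, which restrains E2F, had 64.7, 113, 92.0 and 124 FPKM. These 3 were named after their values were seen. Of 61 genes of mitosis, 47 were above 0 with JQ1 and 50 with JQ1 + PHA, against 5664 and 5577 of all 11503 genes. The medians were 0.21 and 0.31. None was 2-fold higher (background 5.22% and 3.69%) or lower (background 8.65% and 8.0%).

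**Figure D4:**
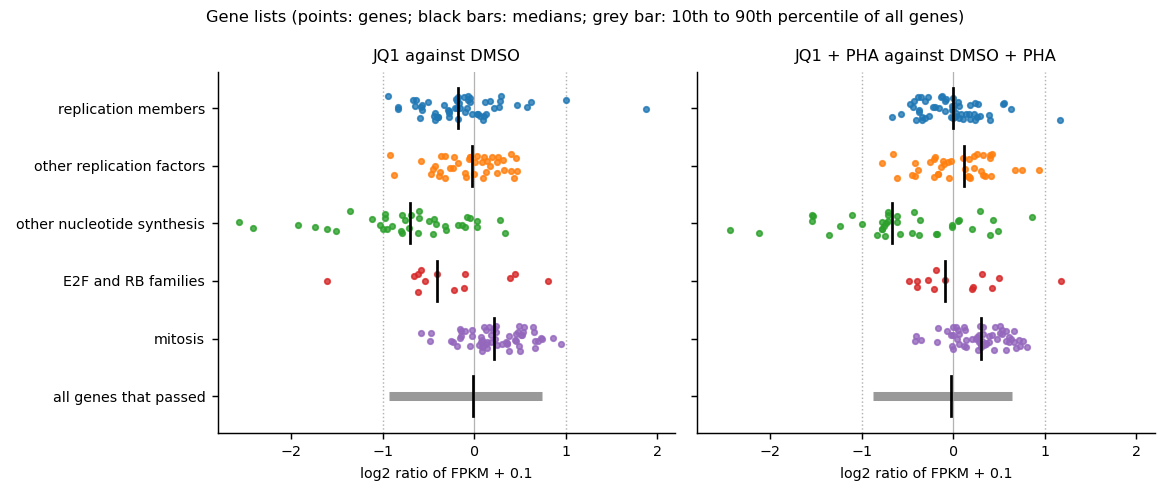
The x axis gives the log2 ratio of FPKM + 0.1 for the genes of 5 lists (rows, 1 point per gene that passed the filter, black bars for medians), without PHA on the left and with PHA on the right, and the grey bar spans the 10th to the 90th percentile of all genes that passed. The replication genes have medians of -0.17 and -0.01 and the other genes of nucleotide synthesis of -0.71 and -0.67.

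Replication genes often stood head to head with another gene. A protein-coding gene on the other strand started within 1000 bases upstream of 17 of the 55 genes (30.9%), against 13.1% of 9489 protein-coding genes that passed the filter. A gene that overlaps the locus had at least 5% of the member's own counts for 16 of the 55. The counts of such a gene exceeded the member's own in at least 1 library for GINS2 (GSE1), RFC4 (EIF4A2), PRIM1 (NACA), FEN1 (FADS2) and CHAF1B (MORC3). MORC3 had 1177, 2486, 1367 and 2382 counts, higher in both JQ1 libraries, and its part in the CHAF1B value was not tested. The authors' methods name a stranded library kit, but the strand setting of the counting is not given in the sources used here. If the counting ignored strand, reads of opposite-strand genes and of the member cannot be told apart. MORC3, NACA and FADS2 lie on the same strand as the member, where a strand setting could not separate the reads.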

How the data were processed

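RNA-seq of Jurkat cells was analysed in 4 conditions with 1 library each, which were grouped by the treatment in the labels. The deposited tables hold, per gene, read counts without normalization and FPKM, both made by the authors. The authors' methods name Hisat2 (2.0.4) with GRCh38, whereas the submitters' processing notes list TopHat2 (2.0.9) and Cufflinks (2.1.1). The counting program, its strand setting and the annotation release are not given in the sources used here. The deposited FPKM equalled the count over a gene length and the library total for 12689 genes with at least 20 counts (largest relative spread of the length 4.65e-05).

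The log2 ratio of FPKM + 0.1 was taken where the mean FPKM was 1 or more (11503 genes), and genes past 2-fold or 1.5-fold were counted. Intervals are 95% exact (Clopper-Pearson) intervals of ratios of shares of counts and cover counting error only. No test between conditions was made. The 55 genes and all lists were chosen with earlier results of these data known. The naming rule took genes past 2-fold in any comparison, the highest and lowest JQ1 ratio of each role, the 5 highest mean FPKM, and opposite JQ1 signs with both intervals away from 0. It also took, from each other list, up to 5 genes per direction past 2-fold in both JQ1 comparisons. Other members are given so that each role is accounted for, and were chosen after their values were seen.

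Alternatives were another pseudocount, another filter, a 1.5-fold threshold, centring, TMM (edgeR 4.0.16) and DESeq2 (1.42.0) factors, and removal of mitochondrial genes. Overlaps were found from the deposited gene loci. Strands, exon lengths and head-to-head starts were read from GENCODE 44, and promoters from RefSeq (GRCh38.p14) by gene symbol. Python 3.11.15, numpy 2.4.6, pandas 2.3.3, scipy 1.17.1 and R 4.3.3 were used, and the steps were tested on simulated data.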

Additional observations from a re-analysis of the deposited data

Results flagged for a closer look

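Several genes had counting intervals on opposite sides of 0 in 2 comparisons of the same kind. These differences between conditions were not tested because each rests on 1 library. The share of all genes that do the same was not counted, so these genes cannot be called unusual. With JQ1, TYMS had a log2 ratio of -0.16 without PHA and 0.10 with PHA, and POLD1 had -0.11 and 0.18. The POLD1 interval without PHA (-0.21 to -0.01) ended close to 0. TMM and DESeq2 factors moved the median of all genes in that comparison by 0.02 and 0.04, so the place of POLD1 here depends on scaling. With PHA, first in DMSO and then in JQ1, the ratios were -0.14 and 0.21 for MCM2, -0.08 and 0.15 for MCM3, and -0.06 and 0.12 for MCM7. CDC6, the loading factor, had -0.09 and 0.10. Larger values were those of the polymerase delta subunits POLD2, with -0.53 and 0.15, and POLD3, with -0.31 and 0.55. In the supply genes they were -0.10 and 0.06 for RRM2 and -0.14 and 0.12 for TYMS, and LIG1 had -0.16 and 0.11. PCNA was the 1 gene with the reverse order, at 0.08 in DMSO and -0.10 in JQ1. Values here are ratios of shares of counts.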

How the results depend on the processing

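With a pseudocount of 1, 1 gene (GINS4) was at least 2-fold higher in JQ1 against DMSO, since RRM2 then had a log2 ratio of 0.99, and GINS4 had 1.51 against DMSO with JQ1 and 1.45 with DMSO + PHA. With a 1.5-fold threshold, 7 genes were lower in JQ1 against DMSO, and 1 was lower and 2 were higher in JQ1 + PHA against DMSO + PHA, as a lower threshold admits more genes. The scalings (centring, TMM, DESeq2 factors, no mitochondrial genes) moved the median of all genes by no more than 0.06. Under them the median of the 55 genes lay between -0.17 and -0.13 in JQ1 against DMSO, and between 0.00 and 0.05 in JQ1 + PHA against DMSO + PHA, where 24 to 27 genes were below 0. Of 96 values of single named genes, 8 moved by more than their counting interval with DESeq2 factors and 6 with TMM. A change of sign was looked for only in values of at least 2-fold, and none was found. The other counts were within 1.5 times their main value. No paired analysis was possible because each condition has 1 library and the labels give no replicate numbers, and for the same reason no library could be left out.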
